A study of Mus musculus with 16 samples.

Results

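The effect of IL-6 loss in the host was compared between leukemic cells and the marrow cells around them, gene by gene. Genes were included when they stood in both deposited tables (tumor and stroma) with a mean normalized count over 10 in each, which gave 10887 genes of the 11812 in both tables and the 16612 in either. For each gene the tumor effect is the log2 change from WT to IL-6 KO hosts in leukemic cells, the stroma effect is the same change in mCherry- cells, and the difference is the tumor effect minus the stroma effect. Every effect was computed after adding 1 to the normalized count and taking log2, so changes of low genes are understated.

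The comparison rests on 4 groups of 4 libraries. In all of them, C57BL/6J mice, 6 to 8 weeks old when obtained, received 500000 BCR-ABL+, Arf-/- B-ALL cells by the tail vein and no treatment, and marrow was taken from femur and tibia 8 days later. WT hosts were intact, and IL-6 KO hosts lacked Il6. Tumor libraries came from sorted mCherry+ leukemic cells, which carry intact Il6 in both hosts and stem from 1 male donor line infected with an mCherry retrovirus, so the model has 1 leukemia. Stroma libraries came from the sorted mCherry- cells after lysis of red blood cells. The mice of the study were of both sexes, and neither the sex of each host nor the mouse behind each library is given in the labels, so the spread between libraries may be technical in part.

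Interleukin 6 binds its receptor Il6ra and the shared signaling chain Il6st, and the kinases bound there activate Stat3, which induces its own inhibitor Socs3. In marrow the cytokine is known as a signal for myeloid output and for acute phase and inflammatory genes. A host knockout removes the cytokine from the cells around the leukemia, while the leukemic cells keep their own Il6 gene.

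The labels were checked against marker genes. The B lineage markers (26 of 28 tested) had a mean log2 level of 11.82 to 11.98 in tumor libraries and of 5.52 to 6.74 in stroma libraries, which were normalized separately. In stroma the mean log2 level was 10.4 to 12.1 for erythroid and 7.30 to 9.59 for mature neutrophil markers. It was 4.62 to 6.69 for monocyte and macrophage markers. Of 26 mesenchymal and endothelial markers 10 were tested. Testing also required a mean over 10 in tumor, so that count does not describe the stroma. Stroma here stands for the host's mCherry- marrow as sorted. Il6 itself was not analysed here. IL-6 KO stroma 4 stood apart, with 10.9% of its normalized counts on the 7SL RNA Rn7s1 against 71.5% to 79.0% in the other IL-6 KO stroma libraries. That share was 19.2% to 50.1% in WT stroma, 3.40% to 4.11% in WT tumor and 5.40% to 6.24% in IL-6 KO tumor. In bulk samples fewer cells of a type and less RNA per cell cannot be told apart. The number of reads behind each value is unknown.

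The compartments were measured with very different precision, which sets what can be said of a difference. The median standard error of an effect was 0.12 in tumor and 0.57 in stroma, and that of the difference was 0.61. In tumor 2565 of the 10887 genes (23.6%) differed between hosts at an adjusted p under 0.05 (limma with Benjamini-Hochberg adjustment), 1496 higher (13.7%) and 1069 lower (9.82%) in IL-6 KO, and the total was 1679, 1559 and 1636 when WT tumor 3, IL-6 KO tumor 1 or IL-6 KO tumor 4 was left out. In stroma 1 gene passed that threshold and 1000 (9.19%) had an unadjusted p under 0.05, 440 higher (4.04%) and 560 lower (5.14%). The difference passed in 1 gene (0.00919%). That became 9, 4, 2 and 5 genes when IL-6 KO tumor 2, IL-6 KO tumor 3, WT stroma 3 or IL-6 KO stroma 3 was left out. In 1104 genes (10.1%) the difference had an unadjusted p under 0.05. Among these it was positive in 571 (5.24% of all genes) and negative in 533 (4.90%), whichever compartment changed more. An effect called in tumor and not in stroma is therefore not shown to differ between compartments unless its difference is given.

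**Figure D1:**
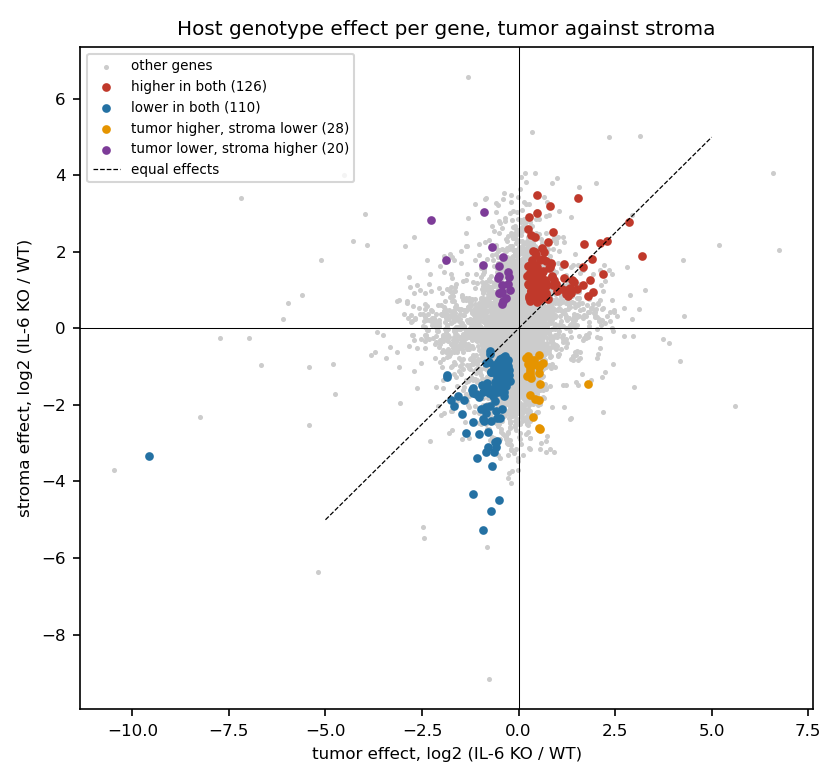
Each point is 1 of the 10887 genes, with the tumor effect on the x axis and the stroma effect on the y axis (log2 of IL-6 KO over WT). Colored points passed an adjusted p under 0.05 in tumor and an unadjusted p under 0.05 in stroma, and 236 of these 284 genes lie in the quadrants where both effects have the same sign.

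The genotype effects of both compartments were weakly alike across genes. Their Spearman correlation was 0.207 over the 10887 genes, which are not independent replicates and share GC content and cell mixture. The signs were equal in 57.2% of all genes and in 64.6% of the 2565 genes called in tumor. Of the 284 genes called in tumor that also had an unadjusted p under 0.05 in stroma, 126 were higher in both, 110 were lower in both, 28 were higher in tumor and lower in stroma, and 20 were lower in tumor and higher in stroma. The 126 were 8.42% of the higher tumor genes, against 4.04% of all genes higher in stroma at such a p. The 110 were 10.3% of the lower tumor genes, against 5.14% of all genes lower in stroma. The 28 and the 20 were each 1.87% of their tumor class. The remaining 1342 higher and 939 lower tumor genes had no such stroma p. In 137 (10.2%) and 174 (18.5%) of these the difference itself had an unadjusted p under 0.05. The share over all genes was 10.1%, but it counts genes with an unadjusted stroma p under 0.05, which these classes leave out. Among the 7606 genes with neither a tumor call nor such a stroma p it was 3.05%. Both tumor classes lay above that share, but the tumor effect enters the difference, so the gap is not read as an excess.

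The gene whose difference passed was Gm11336, which lies at chr13:23746166-23746499 (GRCm38). It is annotated as an unprocessed pseudogene of a histone cluster, and it is named here after its values were seen. In stroma its normalized counts reached 1185, 2058, 1325 and 1105 in WT hosts and 0, 1.93, 10.3 and 0 in IL-6 KO hosts. In tumor they were 162, 443, 292 and 189 in WT and 118, 201, 139 and 142 in IL-6 KO hosts, and these groups overlapped. The tumor effect was -0.77 (standard error 0.31) and the stroma effect -9.16 (standard error 0.75), a difference of 8.40 (95% interval 6.69 to 10.11, adjusted p = 0.000158). Its transcript is at least 97% identical over 150 nucleotides or more to those of 13 other genes, among them H2a histone genes, so reads may be split between these copies and the value is uncertain.

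The next 2 genes by p of the difference had opposite patterns. Neither passed with the settings used throughout, and both calls depended on the settings. Hes5, a transcriptional repressor known as a Notch target, had 512, 261, 745 and 538 normalized counts in WT stroma and 58.4, 44.9, 79.7 and 20.03 in that of IL-6 KO hosts. In tumor it ranged from 130 to 187 in WT and from 142 to 182 in IL-6 KO hosts. All IL-6 KO stroma libraries lay below all WT ones, while the tumor groups overlapped. The tumor effect was -0.03 and the stroma effect -3.38, a difference of 3.35 (standard error 0.53, 95% interval 2.23 to 4.47, adjusted p = 0.0701). Over the alternatives the adjusted p of Hes5 ran from 0.011 with array weights to 0.375 without WT stroma 4. It passed with a mean over 50 (0.044), quantile normalization (0.0402), the GC and length trend removed (0.021), and without IL-6 KO tumor 2 (0.0191), IL-6 KO tumor 3 (0.0275) or IL-6 KO stroma 3 (0.0247).

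Ncf4, a subunit of the phagocyte NADPH oxidase, went the other way. It had 278, 289, 287 and 311 normalized counts in WT stroma and 961, 1214, 647 and 1006 in the IL-6 KO libraries, with no overlap (5.94% of all genes did not overlap in stroma, 2.64% with the knockout higher and 3.31% with it lower). In tumor it had 1332, 1306, 1240 and 1544 in WT and 1161, 1230, 1019 and 1102 in IL-6 KO hosts, again with no overlap but lower in the knockout (28.1% of all genes did not overlap in tumor, 16.4% with the knockout higher and 11.7% with it lower). The tumor effect was -0.26 (standard error 0.09, adjusted p = 0.0685) and the stroma effect 1.68 (standard error 0.30, unadjusted p = 0.000108). The difference was -1.94 (95% interval -2.61 to -1.27, adjusted p = 0.0716). The adjusted p of Ncf4 ran from 0.00325 with array weights to 0.404 without WT stroma 2. It passed with a mean over 50 (0.044), the GC and length trend removed (0.0435), 1 fit of 4 groups (0.0155), and without IL-6 KO tumor 2 (0.0191) or IL-6 KO stroma 3 (0.0243).

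Among genes with a positive difference, Epb41, which encodes the red cell membrane protein 4.1, was lower in IL-6 KO stroma. It had 5246, 7713, 6966 and 9615 normalized counts in WT stroma and 2442, 3391, 3179 and 2018 in the IL-6 KO libraries. Its tumor groups overlapped, and its difference was 1.49 (standard error 0.32, adjusted p = 0.24). Mns1 (difference 1.78, standard error 0.37) and Depdc1b (1.55, standard error 0.34) had the same form, with tumor effects of 0.14 and 0.18 and stroma effects of -1.64 and -1.37. On the other side, Map1b, a microtubule-associated protein, fell in tumor. It had 261, 656, 335 and 284 normalized counts in WT tumor and 34.8, 103, 54.0 and 98.1 in IL-6 KO tumor, with no overlap, and a tumor effect of -2.42 (standard error 0.39, adjusted p = 0.00356). In stroma the Map1b groups overlapped, and the difference was -2.71 (95% interval -3.90 to -1.52, adjusted p = 0.189). Relch and Cemip2 had differences of -1.52 and -1.79, with stroma effects of 1.12 and 1.49. Srp54b, a signal recognition particle protein with near-identical copies in Srp54a and Srp54c, had 0, 0, 97.8 and 0 in WT stroma and 113, 482, 755 and 193 in the IL-6 KO libraries, and its fitted difference of -7.88 (adjusted p = 0.156) depends on the pseudocount. It passed without WT stroma 3 (adjusted p = 0.000423). With array weights the differences of Epb41 (adjusted p = 0.0368), Map1b (0.0312), Relch (0.0152) and Srp54b (0.0152) passed.

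Gene lists of pathways and cell types were then described by the median effect of their members beside that of all genes, which was 0.025 in tumor, -0.0081 in stroma and 0.035 for the difference. Shares over all genes change when 1 library is left out. A count from such a fit that stands without its share is not set against the background. Over the 33 lists, the widest gaps between compartments among lists of more than 10 tested genes were found in neutrophil precursor, histone, erythroid and mitotic genes, in each case with the tumor median above the stroma median. That order held with all libraries only: without IL-6 KO stroma 4 the erythroid median difference was 0.46, below those of mitochondrially encoded messages (0.82), monocyte and macrophage genes (0.69) and mature neutrophil genes (0.56).

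Histone genes were the clearest case of a program with opposite medians. Replication-dependent histones package new DNA and their messages accumulate in S phase. Of 60 tested, 23 rose and 5 fell in IL-6 KO tumor, against 13.7% and 9.82% of all genes, with a median tumor effect of 0.24. In stroma the median effect was -0.65, and 17 of the 60 had an unadjusted p under 0.05 in the lower direction and 1 in the higher, against 5.14% and 4.04% of all genes. The difference was positive in 56 of the 60, with a median of 0.86, and in 30 of them it had an unadjusted p under 0.05, against 5.24% of all genes. The 17 became 28 without IL-6 KO stroma 3 (7.23% of all genes) and 13 without replicate 4 (5.81%). No single histone difference passed adjustment with all libraries weighted equally. Of the 60 transcripts, 46 share stretches of at least 97% identity with another gene, so reads may be divided among them, and the 14 without such a copy had medians of 0.27 in tumor and -0.48 in stroma, with an unadjusted p under 0.05 of the difference in 5.

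H2ac8, a histone H2A gene, had 1335, 1402, 1292 and 1274 normalized counts in WT stroma and 220, 720, 467 and 571 in that of IL-6 KO hosts. In tumor it had 13271, 12191, 10151 and 12000 in WT and 16745, 10193, 14659 and 14407 in IL-6 KO hosts. The stroma groups were apart and the tumor groups overlapped, with a difference of 1.76 (standard error 0.39, 95% interval 0.93 to 2.59, adjusted p = 0.24). H2bc6, a histone H2B gene, had effects of opposite sign. It had 29507, 25936, 25283 and 27246 in WT tumor and 55026, 31466, 40091 and 44100 in IL-6 KO tumor, a rise of 0.63 (standard error 0.14, adjusted p = 0.0131). In stroma it had 2565, 2228, 1274 and 1678 in WT and 887, 763, 881 and 1680 in IL-6 KO hosts, where 1 knockout library reached the WT range, an effect of -0.90 (unadjusted p = 0.0209). The difference of H2bc6 was 1.54 (95% interval 0.75 to 2.32, adjusted p = 0.24), and it passed with array weights (adjusted p = 0.0234).

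Mitotic genes had the same median stroma effect and a tumor median nearer 0. Over the 50 genes of mitosis and G2/M the median tumor effect was 0.07 and the median stroma effect -0.65. In stroma 18 of the 50 had an unadjusted p under 0.05 in the lower direction and 1 in the higher, against 5.14% and 4.04% of all genes. In tumor 13 rose and 2 fell, against 13.7% and 9.82%. The mean log2 level over the list was 9.08 to 9.76 in WT stroma, and IL-6 KO stroma 2 and 3 lay inside that range while replicates 1 and 4 (8.59 and 8.65) lay below it. The difference was positive in 43 of 50, with a median of 0.70, and 20 had an unadjusted p under 0.05, against 5.24% of all genes. That count was 13, 11 and 13 when WT stroma 1, 2 or 4 was left out. Without WT stroma 2, 745 of all genes had such a p in either direction, against 1104 with all libraries. Hmmr, a spindle-associated protein, had 894, 904, 414 and 722 normalized counts in WT stroma and 139, 235, 370 and 309 in the IL-6 KO libraries, with no overlap. Its 8 tumor libraries all lay between 2295 and 2737, where the groups overlapped, and the 95% interval of its difference was 0.63 to 2.37 (adjusted p = 0.276). Kif20a, a kinesin of cytokinesis, had a tumor effect of 0.41, a stroma effect of -0.95 and a difference of 1.36 (standard error 0.35, adjusted p = 0.266). Ube2c, the ubiquitin-conjugating enzyme of mitotic exit (named after its values were seen), rose in tumor by 0.31 (standard error 0.06, adjusted p = 0.00744) and had a stroma effect of -1.04 (unadjusted p = 0.0218).

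DNA replication genes were closer together. Of 50 genes of the E2F and replication list 16 rose and 3 fell in tumor (median 0.11), against 13.7% and 9.82% of all genes. In stroma 3 had an unadjusted p under 0.05 in each direction (median -0.23), near the shares over all genes (4.04% higher and 5.14% lower). The difference had such a p in 5, all positive, against 5.24% of all genes. Without IL-6 KO stroma 3 these became 7 lower in stroma (7.23% of all genes) and 10 for the difference (6.95%). Orc1, a subunit of the origin recognition complex, had 488, 180, 181 and 423 normalized counts in WT stroma and 25.4, 74.6, 259 and 45.0 in the IL-6 KO libraries, and a difference of 2.90 (standard error 0.79, adjusted p = 0.266). Both the stroma and the tumor groups of Orc1 overlapped.

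The promoters of histone and mitotic genes are printed here because the median effects of these lists differed between the compartments, for mitotic genes mainly through stroma. Whether promoters have a part in this was not tested. The windows run from 250 bases before to 50 after the annotated start (RefSeq, GRCm38.p6, 5′ to 3′ on the gene's strand), and capitals mark the letters CCAAT, those of TATAAA and those of TTTGAA, on either strand. H2ac8 lies at chr13:23571171-23571470, H2ac6 at chr13:23683910-23684209 and Hmmr at chr11:40733388-40733687, all on the minus strand, and Ube2c at chr2:164769679-164769978 on the plus strand.
H2ac8: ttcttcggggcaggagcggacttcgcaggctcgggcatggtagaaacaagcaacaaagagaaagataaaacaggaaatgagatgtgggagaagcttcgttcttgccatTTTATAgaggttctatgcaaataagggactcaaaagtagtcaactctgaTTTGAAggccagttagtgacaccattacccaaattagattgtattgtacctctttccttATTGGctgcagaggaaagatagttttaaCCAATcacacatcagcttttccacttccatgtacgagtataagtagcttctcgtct
H2ac6: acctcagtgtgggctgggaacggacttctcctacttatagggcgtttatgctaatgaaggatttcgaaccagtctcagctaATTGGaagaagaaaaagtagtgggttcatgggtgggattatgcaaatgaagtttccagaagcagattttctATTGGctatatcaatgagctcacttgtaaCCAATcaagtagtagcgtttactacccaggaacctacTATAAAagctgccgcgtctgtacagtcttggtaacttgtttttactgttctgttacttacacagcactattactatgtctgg
Hmmr: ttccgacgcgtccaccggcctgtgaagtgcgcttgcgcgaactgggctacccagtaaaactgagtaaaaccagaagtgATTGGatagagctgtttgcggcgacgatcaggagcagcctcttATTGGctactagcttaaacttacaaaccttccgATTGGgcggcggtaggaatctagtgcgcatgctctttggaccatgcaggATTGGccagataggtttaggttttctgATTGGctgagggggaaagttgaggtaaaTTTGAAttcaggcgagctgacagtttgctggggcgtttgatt
Ube2c: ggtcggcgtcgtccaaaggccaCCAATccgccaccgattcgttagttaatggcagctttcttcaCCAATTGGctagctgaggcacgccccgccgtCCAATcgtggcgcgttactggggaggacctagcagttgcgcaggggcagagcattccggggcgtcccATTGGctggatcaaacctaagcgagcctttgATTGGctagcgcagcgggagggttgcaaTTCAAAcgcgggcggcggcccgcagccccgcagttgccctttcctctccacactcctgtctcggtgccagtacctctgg

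The letters CCAAT, which the factor NF-Y is known to bind, stood in 42 of the 49 histone promoters found (85.7%) and in 32 of 42 mitotic ones (76.2%), against 39.6% of the 8169 promoters found for the genes tested and 37.9% of all 27025. TATAAA stood in 59.2% of histone and 2.38% of mitotic promoters, against 6.89% of those of the genes tested. TTTGAA, the core of the cell cycle homology region, stood in 76.2% of mitotic and 44.9% of histone promoters, against 982 of the 8169. No motif holds another, and all were searched on both strands. A match describes the letters in the window and not a bound site.

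**Figure D2:**
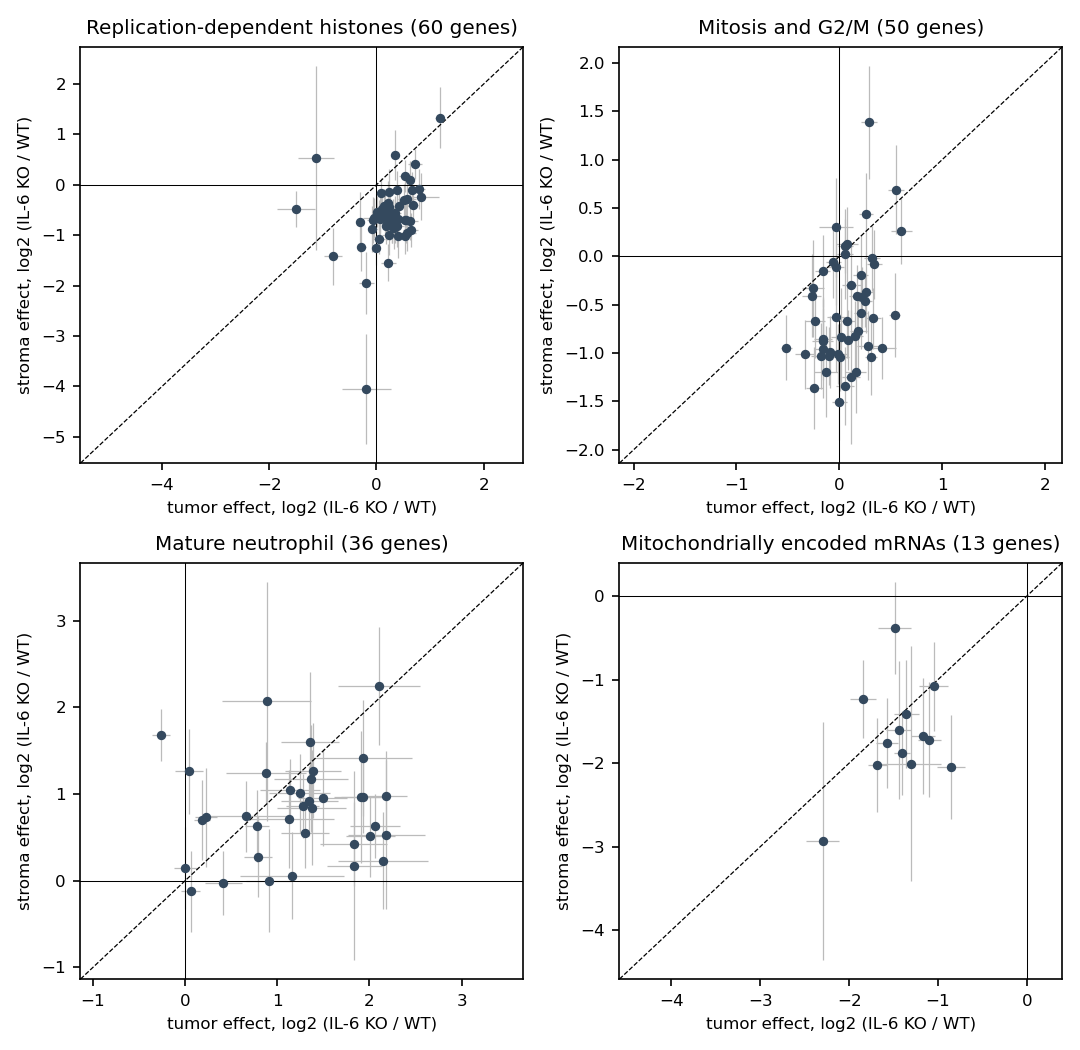
Each panel plots the members of 1 list with the tumor effect on the x axis and the stroma effect on the y axis (log2 of IL-6 KO over WT), bars showing 1 standard error and the dashed line equal effects. Most histone and mitotic genes lie below the line, with stroma effects under 0, mature neutrophil genes lie in the upper right, and all 13 mitochondrially encoded messages lie at negative values on both axes.

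Erythroid genes also differed by their medians. Over the 33 heme and erythroid genes tested the median effect was 0.09 in tumor and -0.73 in stroma, where 10 had an unadjusted p under 0.05 in the lower direction and none in the higher, against 5.14% and 4.04% of all genes. Leaving out IL-6 KO stroma 3 made that 23 (median -1.08, 7.23% of all genes), and leaving out replicate 4 made it 4 (median -0.51, 5.81% of all genes). The difference was positive in 28 of 33 and had an unadjusted p under 0.05 in 8, against 5.24% of all genes. Besides Epb41, Zfpm1, the partner of the erythroid factor Gata1, had 3849, 2667, 1815 and 1941 normalized counts in WT stroma and 735, 990, 1048 and 1152 in the IL-6 KO libraries, with a difference of 1.33 (standard error 0.37, adjusted p = 0.266) (named after its values were seen). Nfe2, a factor of erythroid and platelet genes, rose in tumor by 1.40 (standard error 0.44, adjusted p = 0.0444) from low counts and had a stroma effect of -0.83 (unadjusted p = 0.0792). The mean log2 level over the list ranged from 10.4 to 12.1 in IL-6 KO stroma, which took in the range of WT stroma (mean 11.8 ± 0.24, SD, n = 4). The number with an unadjusted p of the difference under 0.05 became 18 when IL-6 KO stroma 3 was left out (6.95% of all genes) and 7 when replicate 4 was (6.14%). Erythroid precursors divide, and the part of the erythroid shift in the histone and mitotic ones was not tested.

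Neutrophil precursor genes rose in tumor, while their stroma median depended on single libraries. Of the 16 tested, 11 rose and 1 fell in IL-6 KO tumor, with a median of 1.74. The list holds primary granule proteins and their regulators, and also other genes such as Calr. The shares over all genes were 13.7% and 9.82%. In stroma the median was 0.11, and 1 had an unadjusted p under 0.05 in the higher direction, against 4.04% of all genes. The stroma median was 0.64 without IL-6 KO stroma 3, with 4 of the 16 at an unadjusted p under 0.05 in the higher direction and 3 of these also called higher in tumor, and -0.24 without replicate 4, with none. The difference was positive in 14 of 16 (median 1.40), with such a p in 7, against 5.24% of all genes. That number was 4 when WT stroma 4 or IL-6 KO stroma 3 was left out. Ctsg, the granule protease cathepsin G, had 15.9, 14.5, 21.3 and 16.6 normalized counts in WT tumor and 115, 169, 43.9 and 96.3 in IL-6 KO tumor, a rise of 2.43 (standard error 0.40, adjusted p = 0.00366) with no overlap. In stroma it had 18.8, 53.2, 53.6 and 41.9 in WT and 61.1, 39.0, 10.1 and 95.8 in IL-6 KO hosts, which overlapped. The difference of Ctsg was 2.41 (95% interval 0.66 to 4.16, adjusted p = 0.344). Fcnb, a ficolin of granules, rose in tumor by 2.43 (standard error 0.34, adjusted p = 0.00202) with a stroma effect of 0.73 and a difference of 1.70 (adjusted p = 0.299). Elane, Prtn3 and Mpo rose in tumor by 1.66, 1.76 and 1.97 and had stroma effects of -0.31, 0.34 and 0.29.

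Mature neutrophil genes were higher in both compartments. Of 36 tested 24 rose and none fell in tumor (median 1.29), against 13.7% and 9.82% of all genes. In stroma 10 had an unadjusted p under 0.05 in the higher direction and none in the lower (median 0.79), against 4.04% and 5.14% of all genes. The 10 became 23 (median 1.16) without IL-6 KO stroma 3 and 5 (median 0.51) without replicate 4. Both effects had the same sign in 33 of 36. Ngp, a secondary granule protein, had 1046, 920, 1067 and 1095 normalized counts in WT tumor and 5242, 4678, 2123 and 4553 in IL-6 KO tumor. In stroma it had 1249, 1855, 1901 and 2166 in WT and 4753, 4051, 1348 and 5333 in IL-6 KO hosts, where replicate 3 lay among the WT libraries. The Ngp effects were 1.93 in tumor (standard error 0.24, adjusted p = 0.00139) and 0.96 in stroma (standard error 0.42, unadjusted p = 0.0389). Camp, the granule peptide cathelicidin, rose in tumor by 2.06 (standard error 0.27, adjusted p = 0.00157), with a stroma effect of 0.63 and a difference of 1.43 (95% interval 0.49 to 2.38, adjusted p = 0.297). The number of the 36 called in tumor and with an unadjusted p under 0.05 in the same direction in stroma was 7, and it became 19 when IL-6 KO stroma 3 was left out and 2 when replicate 4 was. The mean log2 level over the list was 7.06 to 7.40 in WT tumor and 7.86 to 8.60 in IL-6 KO tumor, while that of the B lineage list was 11.92 to 11.98 and 11.82 to 11.94. Whether neutrophil messages in mCherry+ libraries came from leukemic cells or from other cells in the sort was not tested.

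Fn1, the matrix protein fibronectin, which monocytes and macrophages also make, had 132, 159, 133 and 85.2 normalized counts in WT tumor and 1843, 2042, 238 and 1535 in IL-6 KO tumor. All knockout libraries were higher and replicate 3 was the lowest of them, a rise of 3.12 (standard error 0.59, adjusted p = 0.00663). In stroma its groups overlapped, with an effect of 0.51 and a difference of 2.61 (95% interval 1.01 to 4.21, adjusted p = 0.279) that passed without IL-6 KO tumor 3 (adjusted p = 0.0275). IL-6 KO replicate 3 was the lowest knockout library for Ngp, Ctsg and Fn1 in both compartments. The labels do not say whether equal numbers come from 1 mouse.

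Messages of the mitochondrial genome fell in IL-6 KO tumor and had negative effects in stroma. This set was chosen after its values were seen, and its counts are a description. All 13 mitochondrially encoded messages fell in tumor (median -1.40), against 9.82% of all genes. All had negative stroma effects (median -1.72), 7 of them with an unadjusted p under 0.05, against 5.14% of all genes. Over the 13, the mean log2 level was 11.4 to 12.2 in WT stroma, while among the knockout libraries it was lowest in replicates 1 and 3 (8.42 and 9.28), where Rn7s1 took 78.8% and 79.0% of normalized counts. It was 10.8 in replicate 2 (71.5% Rn7s1) and 11.8 in replicate 4 (10.9%), which lay inside the WT range. In tumor the 7SL share was also higher in IL-6 KO libraries (5.40% to 6.24%, against 3.40% to 4.11% in WT). The part of the 7SL share in the tumor or the stroma effect was not tested. COX3, a subunit of cytochrome oxidase (mitochondrial genome, 8607 to 9390), had 34852, 45220, 37848 and 37304 normalized counts in WT tumor and 13273, 14498, 16174 and 14738 in IL-6 KO tumor. In stroma it had 9226, 9060, 17213 and 17616 in WT and 1679, 6848, 1816 and 6728 in IL-6 KO hosts. The groups did not overlap in either compartment, with effects of -1.40 (standard error 0.09, adjusted p = 0.000103) and -1.87 (standard error 0.50, unadjusted p = 0.00279). The difference was 0.47 (95% interval -0.63 to 1.58, adjusted p = 0.794). Tumor effects ranged from -0.85 for ND4 to -2.30 for ND3, and stroma effects from -0.38 for ND6, the message of the light strand, to -2.93 for ND3.

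The nuclear partners of these messages had medians near 0. Of 76 nuclear genes of oxidative phosphorylation 16 rose and 11 fell in tumor (median 0.03), and in stroma 3 and 1 had an unadjusted p under 0.05 in the higher and lower direction (median -0.01). The shares over all genes were 13.7% and 9.82% in tumor and 4.04% and 5.14% in stroma, so the stroma counts lay at or below the background. Mitochondrial ribosomal protein genes had medians of 0.05 and -0.13 over 69 genes. Of the 13 mitochondrial messages 7 have a near-identical nuclear copy. Leaving out IL-6 KO stroma 4 gave the 13 a median stroma effect of -2.26, with an unadjusted p under 0.05 in 12, and leaving out replicate 3 gave -1.17, with such a p in 5.

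**Figure D3:**
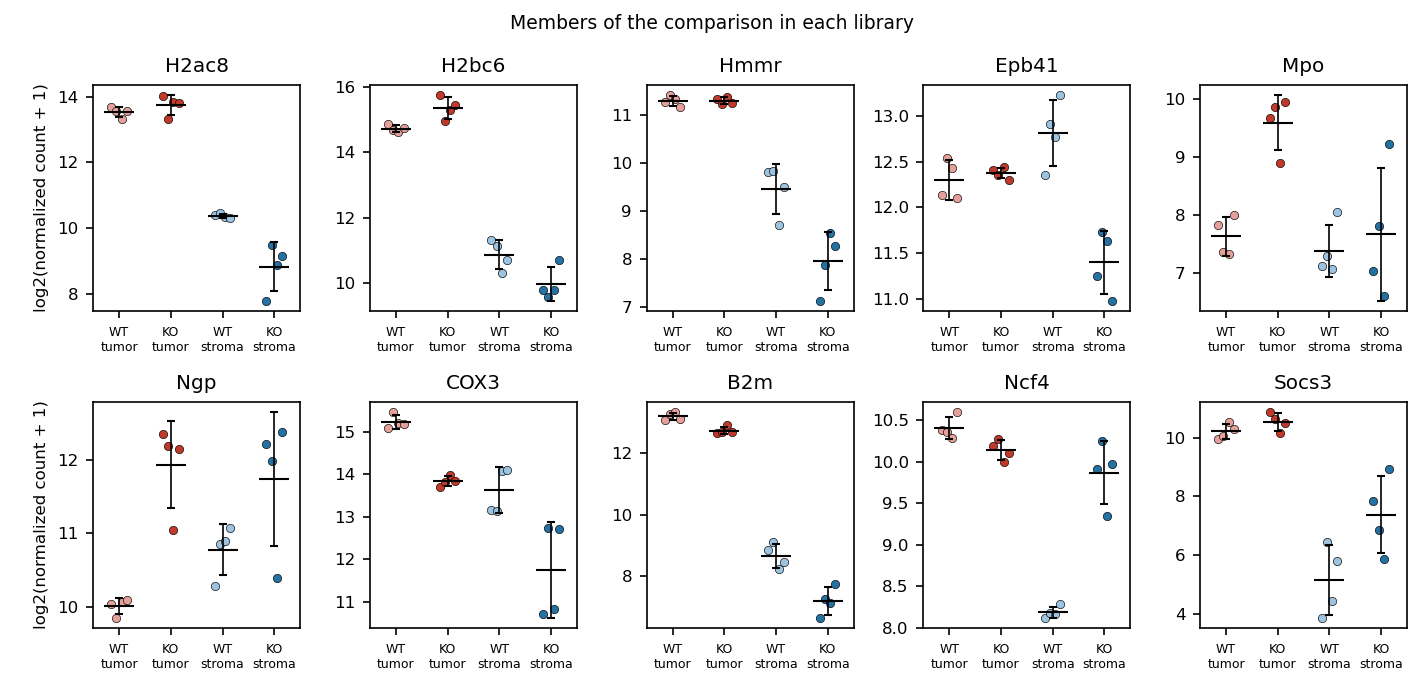
Normalized counts of 10 genes in each library, as log2(normalized count + 1), with 4 points per group and a line with bars for the mean and SD. H2ac8, Hmmr and Epb41 separate only in stroma, Mpo only in tumor, COX3 and B2m are lower in IL-6 KO libraries of both compartments, and Ncf4 is lower in IL-6 KO tumor and higher in IL-6 KO stroma.

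Interferon-stimulated genes were lower in both compartments by their medians. Of 46 tested 13 fell and 2 rose in tumor (median -0.35), against 9.82% and 13.7% of all genes. The number that fell was 7 when WT tumor 3 was left out and 8 when IL-6 KO tumor 1 was. In these fits all genes called in tumor, in either direction, also dropped, from 2565 to 1679 and 1559. In stroma 11 had an unadjusted p under 0.05 in the lower direction and none in the higher (median -0.63), against 5.14% and 4.04% of all genes. Xaf1, Parp14, Eif2ak2 and Parp9 met both conditions. Eif2ak2, the kinase that senses double-stranded RNA, had 1644, 1363, 1664 and 1353 normalized counts in WT tumor and 929, 963, 912 and 1149 in IL-6 KO tumor, and 329, 288, 221 and 344 in WT stroma and 56.7, 79.4, 210 and 157 in the IL-6 KO libraries. Its groups were apart in both, with effects of -0.61 (adjusted p = 0.00521) and -1.39 (unadjusted p = 0.00969) (named after its values were seen). Gbp7, a guanylate-binding protein, had a tumor effect of 0.11 and a stroma effect of -1.36, a difference of 1.47 (standard error 0.49, adjusted p = 0.357). Ifitm3, a restriction factor also made by myeloid cells, rose in tumor by 1.66 (standard error 0.33, adjusted p = 0.00800) and had a stroma effect of 0.28.

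B2m, the light chain of MHC class I, was lower in both. It had 8584, 9776, 10308 and 8887 normalized counts in WT tumor and 6493, 6521, 7658 and 6599 in IL-6 KO tumor, and 462, 550, 301 and 357 in WT stroma and 99.7, 155, 140 and 214 in the IL-6 KO libraries. No groups overlapped, with effects of -0.46 (standard error 0.08, adjusted p = 0.00480) and -1.46 (standard error 0.37, unadjusted p = 0.00176). The difference was 1.00 (95% interval 0.19 to 1.81, adjusted p = 0.418). The class I heavy chain H2-D1 had effects of 0.24 (adjusted p = 0.119) and 0.76 (unadjusted p = 0.0203). Of 22 class I presentation genes 4 rose and 3 fell in tumor, close to the shares over all genes (13.7% and 9.82%).

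The other genes lower in both by the smallest p were Bach2, a transcriptional repressor of B cells, and Ibtk, an inhibitor of Bruton's kinase. Bach2 had 6226, 7553, 5887 and 6875 normalized counts in WT tumor and 4153, 5702, 4295 and 3721 in IL-6 KO tumor, and 1020, 1216, 478 and 1123 in WT stroma and 70.0, 399, 179 and 327 in the IL-6 KO libraries. The 4 groups of Bach2 did not overlap within a compartment, with effects of -0.58 (adjusted p = 0.0122) and -2.16 (unadjusted p = 0.00138). Ibtk had effects of -0.40 (adjusted p = 0.00996) and -1.23 (unadjusted p = 0.00195).

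Among genes higher in both, Rnaset2a, an acid ribonuclease with a near-identical copy in Rnaset2b, had effects of 0.71 (adjusted p = 0.00467) and 1.76 (unadjusted p = 0.000299). Tsen34, a subunit of the tRNA splicing endonuclease, had 1243, 989, 977 and 1103 normalized counts in WT tumor and 1929, 2546, 1636 and 1754 in IL-6 KO tumor, and 60.1, 69.7, 98.1 and 133 in WT stroma and 191, 340, 321 and 287 in the IL-6 KO libraries. Both pairs of groups were apart, with effects of 0.85 (adjusted p = 0.00377) and 1.68 (unadjusted p = 0.00122). Ccdc88b rose in tumor by 0.79 (adjusted p = 0.00756) and Ppm1m, a protein phosphatase, by 0.54 (adjusted p = 0.0136), with stroma effects of 1.58 and 1.44.

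Opposite genes numbered 48, and between 25 and 31 when WT tumor 2 or 3, IL-6 KO tumor 1 or 4, WT stroma 2 or 4 or IL-6 KO stroma 1 was left out. They numbered 79 when IL-6 KO stroma 3 was left out. With all libraries, 28 of 1496 higher tumor genes (1.87%) were lower in stroma, against 5.14% of all genes. Of 1069 lower tumor genes 20 (1.87%) were higher in stroma, against 4.04% of all genes. Opposite genes were thus fewer than the shares over all genes, and those named here are a description. Higher in tumor and lower in stroma were Specc1, Tpcn1, an endolysosomal cation channel, Cenpm, a kinetochore protein, and Pole3, a subunit of DNA polymerase epsilon. Specc1 had 361, 341, 369 and 351 normalized counts in WT tumor and 465, 567, 486 and 537 in IL-6 KO tumor, and 2891, 3240, 2093 and 4181 in WT stroma and 793, 1769, 2075 and 1086 in the IL-6 KO libraries. Its groups did not overlap in either, with effects of 0.53 (adjusted p = 0.00743) and -1.17 (unadjusted p = 0.00652), and a difference of 1.70 (95% interval 0.90 to 2.50, adjusted p = 0.24). The differences of Tpcn1, Cenpm and Pole3 were 1.41, 3.12 and 2.02.

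Lower in tumor and higher in stroma were Ppp4r3b, a regulatory subunit of protein phosphatase 4, the ubiquitin ligase Lrsam1, the forkhead factor Foxj3 and Tcp1, a subunit of the cytosolic chaperonin. Tcp1 had 19637, 19557, 18303 and 19923 normalized counts in WT tumor and 12698, 12694, 16237 and 13273 in IL-6 KO tumor, with no overlap, and fell by 0.50 (adjusted p = 0.00402). In stroma it had 336, 303, 211 and 287 in WT and 1067, 795, 1321 and 242 in IL-6 KO hosts, where replicate 4 lay among the WT libraries, with an effect of 1.36 (unadjusted p = 0.0147). The differences were -1.45 for Ppp4r3b, -2.58 for Lrsam1, -1.86 for Tcp1 and -1.75 for Foxj3, and none passed adjustment.

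The IL-6 pathway itself gave no difference that passed. Il6ra, the receptor, had 401, 365, 481 and 474 normalized counts in WT tumor and 666, 669, 636 and 723 in IL-6 KO tumor, a rise of 0.65 (standard error 0.11, adjusted p = 0.00481) with no overlap. In stroma it had 59.4, 159, 193 and 188 in WT and 311, 189, 168 and 331 in IL-6 KO hosts, an effect of 0.80 (standard error 0.46, unadjusted p = 0.107). The difference of Il6ra was -0.15, with a 95% interval of -1.17 to 0.87. Neutrophil genes also rose in these tumor libraries, and whether the Il6ra message came from leukemic cells or from other cells in the sort was not tested. For the protein, the paper reports no detection of the receptor on leukemia cells by flow cytometry, in culture or in mice. Il6st and Stat3 had differences of -0.06 (95% interval -1.58 to 1.46) and -0.47 (95% interval -1.41 to 0.48).

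Socs3 had 982, 1071, 1482 and 1255 normalized counts in WT tumor and 1872, 1584, 1131 and 1429 in IL-6 KO tumor, and 13.5, 85.5, 20.9 and 55.2 in WT stroma and 228, 114, 57.5 and 491 in the IL-6 KO libraries. Both pairs overlapped, the stroma pair only through 1 WT and 1 knockout library. The effects were 0.32 (adjusted p = 0.186) and 2.24 (unadjusted p = 0.0107), and the difference was -1.91 (95% interval -3.55 to -0.27, adjusted p = 0.44). Of the 25 pathway components tested 6 rose and 2 fell in tumor, and 2 had an unadjusted p under 0.05 in stroma, both higher. With 25 genes these counts are near the shares over all genes (13.7% and 9.82% in tumor and 4.04% in stroma).

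Among 44 STAT3 targets 10 rose and 1 fell in tumor (median 0.32), against 13.7% and 9.82% of all genes. In stroma 6 had an unadjusted p under 0.05 in the higher and 1 in the lower direction (median 0.40), against 4.04% and 5.14% of all genes. In tumor and stroma 1 gene met both conditions. Without IL-6 KO stroma 3 the stroma counts became 14 higher and 3 lower (7.23% of all genes were lower), with a median of 0.80 and 5 genes meeting both conditions. Without replicate 4 the median was 0.11, with 0. Pim1, a survival kinase, rose in tumor by 0.53 (standard error 0.14, adjusted p = 0.0210) and had a stroma effect of -0.46, a difference of 0.99 (95% interval 0.36 to 1.62, adjusted p = 0.296). Tnfrsf1a, a receptor of tumor necrosis factor, rose in tumor by 2.09 (standard error 0.42, adjusted p = 0.00834) from 13.3 to 32.3 normalized counts in WT to 39.0 to 116 in IL-6 KO libraries, with a stroma effect of 0.21 and a difference of 1.89 (adjusted p = 0.309). Some of the targets are also neutrophil genes.

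Genes that moved together differed in base composition. The median GC content of the longest transcript was 55.8% in the 126 genes higher in both, 43.9% in the 110 lower in both and 49.5% in all genes with a sequence. Over 10 bins of equal size, the median tumor effect went from -0.20 in the lowest bin (30.8% to 41.2% GC) to 0.25 in the highest (57.6% to 78.3%), and the median stroma effect from -0.21 to 0.24. With each library's trend with GC and length removed, 1818 genes were called in tumor, 86 genes were higher and 80 lower in both, and the Spearman correlation of the effects was 0.155. The share of the trend in any single gene's effect was not tested. With the trend removed, 44 histones had an unadjusted p of the difference under 0.05, and 12 mitochondrial messages fell in tumor. The share over all genes with such a p in that fit is not given here, so the 44 is not read as a gain.

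**Figure D4:**
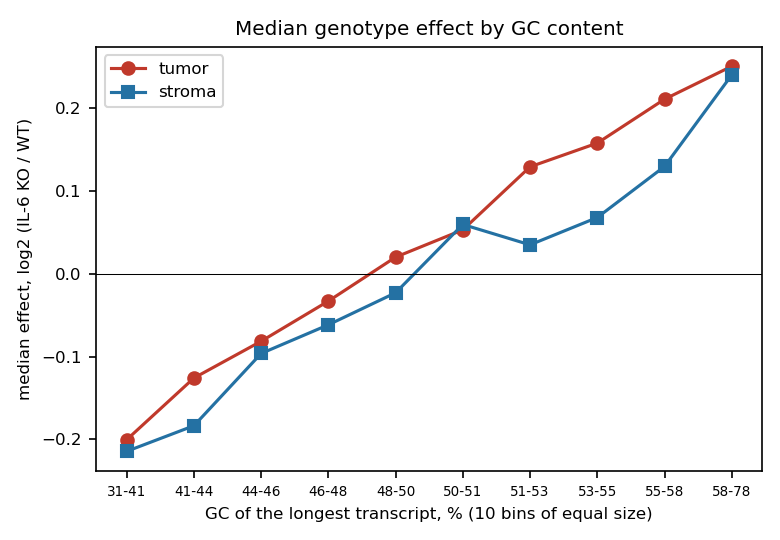
The median genotype effect (log2 of IL-6 KO over WT) is plotted for 10 bins of genes by the GC content of their longest transcript, for tumor (circles) and stroma (squares). Both lines climb from about -0.2 at low GC to 0.25 and 0.24 at high GC.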

How the data were processed

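RNA from sorted mCherry+ (tumor) and mCherry- (stroma) marrow cells of untreated mice was sequenced by the authors with 75 nucleotide reads after ribosomal depletion. The submitters' notes name Salmon 1.3.0, mm10 and DESeq2 1.28.1. The authors deposited, per compartment, normalized counts, a scaled signal that is not whole reads, and the results of their own DESeq2 comparison (mean, log2 fold change, Wald score, p-values and adjusted p-values), which were not used. Whole reads could not be recovered, so count tests were not run.

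Samples were grouped by their labels. Joined genes with a mean over 10 in each table were fitted per compartment with limma 3.58.1 in R 4.3.3 on log2(normalized count + 1), genotype only, with variances following the mean. The difference used the summed squared standard errors and Satterthwaite degrees of freedom. Tests were two-sided, with Benjamini-Hochberg adjustment over 10887 genes and a threshold of 0.05. The method was tested on simulated data. Replicate numbers were not used to pair samples. Names, positions and GC came from GENCODE vM21, and copies from BLAST 2.17.0.

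Genes were named by rule, among protein-coding genes with a mean of at least 50 in both tables: up to 5 per direction by p of the difference, up to 4 for each joint pattern by the larger p, 2 members per list (no such minimum), and Il6ra, Il6st, Stat3 and Socs3. The members of the lists and the comparison were chosen with earlier results of these data known. Others, including Gm11336, Elane, Prtn3, Mpo, Ngp, H2ac6 and the mitochondrial genes but COX3, were named after their values were seen.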

Additional observations from a re-analysis of the deposited data

Results flagged for a closer look

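Gm11336 is singled out because its genotype effect differed between the compartments by a test of the difference itself, with a tumor effect minus stroma effect of 8.40 (adjusted p = 0.000158, limma effects). Its stroma values are near 0 in IL-6 KO hosts, and its near-identical histone copies leave its count uncertain.

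Single libraries stood far from the other 3 of their group in 19 of the 352 groups of 4 formed by the 88 named genes (5.40%), where chance flags about 1 in 20. The largest number fell on IL-6 KO tumor replicate 2, with 4. In that library Depdc1b was low (1039 normalized counts against 1363 to 1399) and Calr was low (27050 against 33310 to 34490), while Jund (12800 against 7557 to 7943) and Bax (4451 against 2004 to 2269) were high. In IL-6 KO tumor replicate 3, Fn1 was low (238 against 1535 to 2042) and B2m high (7658 against 6493 to 6599).

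In WT tumor, Ifitm3 was low in replicate 2 (25.2 against 43.0 to 46.3), Rps15 was low in the same library (19050 against 21930 to 22440), Fcnb was low in replicate 3 (23.8 against 35.2 to 37.1) and Rfxank was high in replicate 4 (377 against 330.1 to 338). In WT stroma replicate 1, Fcnb (133 against 274 to 314), Irf8 (228 against 479 to 545) and Il6ra (59.4 against 159 to 193) were low, and Srp54b was high in replicate 3 (97.8 against 0 in the others).

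In IL-6 KO stroma, Foxj3 (354 against 176 to 190) and Msmo1 (114 against 33.5 to 40.5) were high in replicate 1, Relch was high in replicate 2 (1265 against 826 to 877), Ndufb5 was listed at 0 in replicate 3 (6.43 to 9.76 in the others) and Cdk4 was low in replicate 4 (84.8 against 185 to 215).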

How the results depend on the processing

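The number of genes whose difference passed was 3 with a mean over 50, with quantile normalization, with the GC and length trend removed and with 1 fit of 4 groups, 2 with no trend in the variances and 24 with array weights, against 1. Array weights also gave 4 stroma genes, 433 together and 148 opposite genes, medians of 0.3894 for plasmacytoid and 0.611 for ATF4 genes, and Il6ra a difference of 0.1192. Removing the GC trend gave 2 stroma genes and Il6st a difference of 0.08154, with or without the block. An unadjusted p under 0.01 in stroma left 62 together and 4 opposite. With a mean over 50 the medians were -0.4973 for T and NK, 0.2563 for megakaryocyte, -0.481 for basophil and 0.3391 for plasmacytoid genes. Weights per compartment left 5 erythroid and 1 neutrophil precursor differences with an unadjusted p under 0.05, and no trend 4 precursor ones.

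Same-numbered tumor and stroma libraries of 1 host genotype deviated together with correlations of -0.0626 to 0.108. Same-numbered WT and IL-6 KO libraries of 1 compartment gave -0.0554 to 0.12. Such values cannot show whether libraries share a mouse, which the labels do not say, and the numbers were not taken as pairs. The replicate block gave 2 genes for the difference and 5 erythroid ones, and with the GC trend removed 1563 tumor and 136 together genes.

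Leaving out 1 library gave 1 to 9 genes for the difference, 1559 to 3100 tumor, 1 to 3 stroma, 160 to 325 together (the lowest and highest of 16 fits) and 25 to 79 opposite genes. The opposite count was lowest without IL-6 KO tumor 1 or WT stroma 4 and highest without IL-6 KO stroma 3. Counts ran from 20 to 41 for histone, 11 to 24 for mitotic, 6 to 18 for erythroid and 4 to 8 for precursor differences, and from 7 to 14 for interferon-stimulated genes that fell in tumor. Median differences ran from 0.4068 to 1.004 (plasmacytoid), 0.06654 to 0.3745 (cholesterol), -0.1865 to 0.1114 (glycolysis) and 0.03453 to 0.3259 (ER chaperones). The Il6st difference was 0.1043 without WT tumor 3, 0.02934, 0.0971 and 0.002075 without IL-6 KO tumor 1, 3 and 4, and 0.6468 without IL-6 KO stroma 4. That of Il6ra was 0.2442 without WT stroma 1 and 0.005101 without IL-6 KO stroma 4. Their lowest values were -0.5558 and -0.3199, both without IL-6 KO stroma 3. Of the planned values 3828 counted as the same. For single genes this meant that direction and call held. For counts and list medians it meant only that the value stayed within a set distance of the first. A median could so change sign, as those of NF-kB (-0.2126) and STAT3 targets (-0.2423) did without IL-6 KO stroma 3. The cause of the changes was not tested. Chosen after seeing the data, leaving out neutrophil and mitochondrial genes gave 220 together and 48 opposite, and genes of 40% to 60% GC gave 194 and 46.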
